A study of Mus musculus with 47 samples.

Results

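Low-MHC class II medullary thymic epithelial cells (mTEClo) from adult mice lacking Aire were compared with the same fraction from WT mice. The comparison took every adult library titled as mTEClo, which gave 4 AireKO and 8 WT libraries of the 47 libraries in the series, and covered all genes except the mitochondrial ones. The cells were sorted from thymus as CD45-, EpCAM+, Ly51- cells with low surface MHC class II, and read as pools by full-length RNA sequencing. WT replicates 1 to 5 came from mice aged 4 weeks and WT replicates 6 to 8 from mice aged 5 weeks, with both sexes among the labels. AireKO replicates 1 and 2 came from males aged 5 weeks and AireKO replicates 3 and 4 from males aged 6 weeks. The AireKO mice carry the deletion in every cell and are on a C57BL/6 background per the study's methods. No other engineered allele is named for either group. High-MHC class II cells (mTEChi) from 7 WT and 4 AireKO adults serve as the second fraction. WT mTEChi replicates 1 and 2 came from mice aged 4 weeks and replicates 3 to 7 from mice aged 5 weeks, of both sexes. AireKO mTEChi replicates 1 and 2 came from males aged 5 weeks and replicates 3 and 4 from males aged 6 weeks.

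Aire is a transcriptional regulator that lets mTECs express genes of other tissues, so that developing T cells meet those self-antigens in the thymus. Its main site is mTEChi. The mTEClo gate holds precursors of those cells, the cells that make the chemokine CCL21, and later mimetic cells, which take on programs of tuft, ciliated, microfold, gut, skin or muscle cells. In such pooled libraries fewer cells of a type and less RNA per cell cannot be told apart.

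The libraries held 1628778 to 3938588 counts each, and 4 of the 12 (WT replicates 1 and 2, AireKO replicates 1 and 2) held 1883769 or fewer, whereas the others held at least 2998595. AireKO replicates 3 and 4 had 0 mitochondrial counts, which allows up to 9.17e-05% and 7.62e-05% of their totals, against 6178 to 10339 such counts in each of the other 10. The split between AireKO libraries with and without mitochondrial counts is the same as the split by age and by depth. Age, depth and whatever lies behind the missing mitochondrial counts therefore cannot be told apart. WT replicates 6 to 8, the 5-week WT libraries, were all among the deeper ones. The comparison at 5 weeks thus also set shallower male AireKO libraries against deeper WT libraries of both sexes. WT replicates 1 and 2 are labelled female but had Xist at 15.5 and 10.9 CPM, which are counts relative to the scaled library size, against 1925 to 2018 CPM in WT replicates 5, 7 and 8, and their Y-linked genes summed to 346 and 361 CPM, against 0.51 CPM or less in those 3. In WT the epithelial and low-Cd80 markers of the gate were seen. Epcam (median 240 CPM in WT), Krt5 (542 CPM), Krt14 (324 CPM), Ccl21a (28.2 CPM) and Pdpn (56.5 CPM) were present in every library, and WT mTEClo held 20.3 ± 5.22 CPM of Cd80 (SD, n = 8) against 204 ± 12.4 CPM in WT mTEChi (SD, n = 7). The MHC class II gene H2-Aa differed less, with 358 ± 73 CPM in WT mTEClo (SD, n = 8) against 648 ± 116 CPM in WT mTEChi (SD, n = 7). No library pair within a group differed by less than sampling noise.

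Of 19301 genes tested, 848 (4.39%) were higher and 754 (3.91%) lower in AireKO mTEClo, at an adjusted p under 0.05 and at least a 2-fold change. Because the AireKO libraries fall into 2 ages, each pair was also compared on its own. Against WT of the same age, the 5-week AireKO pair called 1306 of 20570 genes (6.35%), 673 higher (3.27%) and 633 lower (3.08%). Against all WT, the 6-week pair gave 1184 higher (5.76%) and 1062 lower (5.16%). Between 5-week and 4-week WT, 62 genes (0.301%) were called. The 6-week and the 5-week AireKO pairs differed from each other at 1437 genes (6.99%), of which 802 (3.9%) were higher at 6 weeks. Genes called in the whole comparison and called alike in both pairs numbered 282 higher (1.46% of tested genes) and 235 lower (1.22%), 2.68% in all. Over all genes, 5.8% had every AireKO library above every WT library in CPM and 5.84% the reverse. Both pairs were set against shared WT libraries, so agreement between them is no independent repeat. Single libraries moved some of these counts. Without AireKO replicate 1 the 5-week count fell from 1306 to 805, and without AireKO replicate 4 the 6-week count fell from 2246 to 1464. The count between AireKO ages was 850 without replicate 2 and 626 without replicate 4, and that between WT ages was 32 without WT replicate 5 or 6 and 41 without WT replicate 8.

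Aire itself (chromosome 10, 78030022 to 78043610, minus strand, GRCm38) ran from 19.6 through a median of 76.9 to 128 CPM in the 8 WT libraries. In AireKO replicates 1 to 4 it stood at 7.61, 3.14, 0 and 0.245 CPM, which were 14, 5, 0 and 1 reads. All 4 AireKO libraries lay below all 8 WT libraries, and Aire was lower by a log2 fold change of -5.14 ± 0.57 (SE, adjusted p = 1.57e-07). WT mTEClo held far less Aire than WT mTEChi (821 ± 55.1 CPM, SD, n = 7). The annotation places Dnmt3l over part of Aire, and counting ignored strand, so reads of the 2 genes cannot be told apart there. Dnmt3l stood at 20.1, 15.7, 6.22 and 5.89 CPM in AireKO against 0.768 to 6.91 CPM in WT (2.06 ± 0.44, adjusted p = 0.00101). Within 5 Mb on either side of Aire, 10 of 202 tested genes were higher and 4 lower, 6.93% in all, against 8.3% of all genes.

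Interferon-stimulated genes fell in AireKO mTEClo at both ages. These genes encode antiviral effectors such as the OAS sensors of double-stranded RNA and the Mx and guanylate-binding GTPases, and resting mTECs are known to express them without infection. Of 30 listed genes, all tested, 9 were lower and 0 higher, 8 of the 9 at both ages, where 3.91% of all genes were lower and 1.22% lower at both ages. Their median log2 fold change was -0.79, against -0.00032 over all genes, and 27 of the 30 had every AireKO library below every WT library, against 5.84% of all genes. Summed over the list, WT libraries ran from 4724 to 5427 CPM and AireKO libraries from 3016 to 3142 CPM. WT mTEChi summed to 2378 to 2805 CPM. Leaving out WT replicates 1 and 2 also gave 9 lower genes.

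Oas2 ran from 108 through 124 to 162 CPM in WT, and stood at 26.1, 24.5, 29.9 and 30.4 CPM in the AireKO libraries. The AireKO libraries were alike at both ages, and the log2 fold change was -2.17 ± 0.17 (adjusted p = 3.99e-10). Mx1 ran from 127 through 143 to 155 CPM in WT, and stood at 44.6, 48.9, 44.1 and 46.6 CPM in AireKO (log2 fold change -1.63 ± 0.12, adjusted p = 1.59e-10). Gbp3 ran from 151 through 165 to 181 CPM in WT against 63.6, 65.2, 65.7 and 63.3 CPM in AireKO (-1.36 ± 0.10, adjusted p = 1.47e-10). For these genes the spread between libraries of a group was small beside the gap between groups. Ifit2 (-1.97), Mx2 (-1.35), Rsad2 (-1.35), Isg15 (-1.27) and Iigp1 (-1.13) were lower at both ages. Ifi44 was lower by a log2 fold change of -1.17 overall and -1.58 at 5 weeks, and its value of -0.92 at 6 weeks missed the 2-fold line. Ifit1, at -0.92, also missed that line, although its 4 AireKO libraries (70.7, 66.5, 92.1 and 107 CPM) all lay below the WT minimum of 146 CPM. The transcription factor Irf1, which also responds to interferon gamma, stood at a log2 fold change of 0.14 (adjusted p = 0.122).

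**Figure D1:**
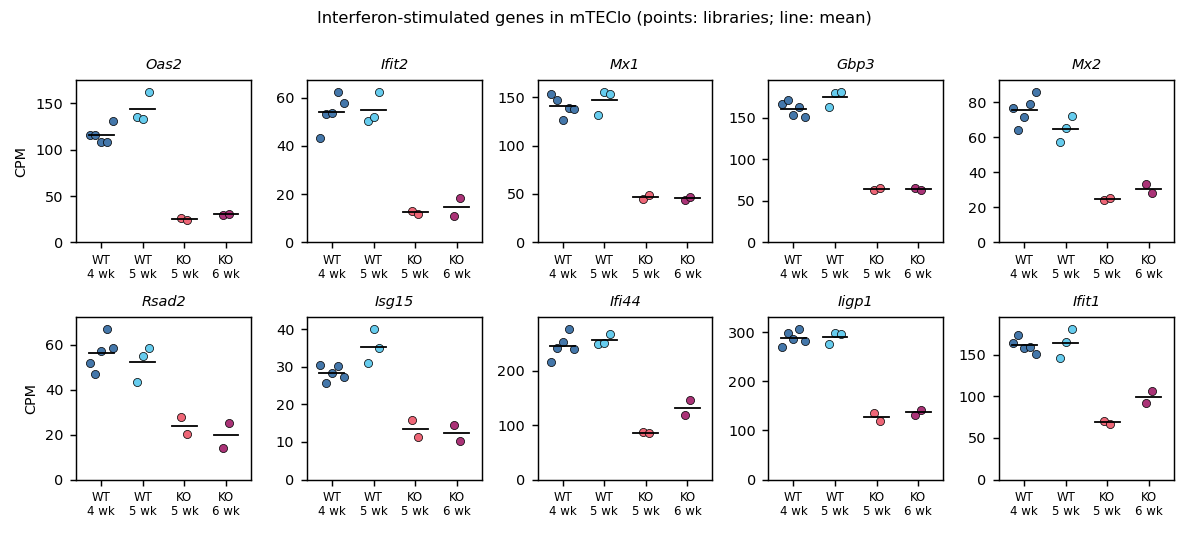
CPM of 10 interferon-stimulated genes in each mTEClo library (y axis, from 0), grouped by genotype and age (x axis, KO meaning AireKO), with points for libraries and a line for the group mean. In every panel the 4 AireKO points sit below the 8 WT points, as for Oas2 with 24.5 to 30.4 CPM against 108 to 162 CPM.

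The promoters of such genes often carry the interferon-stimulated response element, whose core GAAANNGAAA (TTTCNNTTTC on the other strand) is bound by interferon regulatory factors. Promoter windows of RefSeq (GRCm38.p6, 250 bases before to 50 after the start) were at hand for 23 of the 30 genes. The core was found in 15 of these 23 (65.2%), against 3.99% of 27025 genes with a window. Of the 5 genes with a window that were called lower, 3 held it (Isg15, Rsad2 and Gbp3), and Ifit2 and Ifi44 did not hold these letters in the window. It also stood in windows of listed genes that were not called, such as Ifit1, so the letters alone did not separate the called genes from the rest. The windows of the 3 called genes and of Ifit1 are shown with the core in capitals, overlapping matches joined. They are chr4:156200769-156201068 on the minus strand (Isg15), chr12:26456403-26456702 on the minus strand (Rsad2), chr3:142559794-142560093 on the plus strand (Gbp3) and chr19:34640639-34640938 on the plus strand (Ifit1).
Isg15: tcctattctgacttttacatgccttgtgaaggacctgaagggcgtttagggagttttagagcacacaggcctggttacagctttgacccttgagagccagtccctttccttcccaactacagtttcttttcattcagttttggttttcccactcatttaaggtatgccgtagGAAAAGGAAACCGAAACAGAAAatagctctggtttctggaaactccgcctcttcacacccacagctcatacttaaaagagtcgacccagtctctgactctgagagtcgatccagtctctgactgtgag
Rsad2: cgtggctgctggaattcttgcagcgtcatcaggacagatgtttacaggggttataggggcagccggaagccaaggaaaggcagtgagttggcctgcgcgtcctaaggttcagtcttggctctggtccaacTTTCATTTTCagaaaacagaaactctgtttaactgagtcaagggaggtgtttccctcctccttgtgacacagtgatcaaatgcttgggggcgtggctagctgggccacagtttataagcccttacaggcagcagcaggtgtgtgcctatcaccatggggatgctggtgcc
Gbp3: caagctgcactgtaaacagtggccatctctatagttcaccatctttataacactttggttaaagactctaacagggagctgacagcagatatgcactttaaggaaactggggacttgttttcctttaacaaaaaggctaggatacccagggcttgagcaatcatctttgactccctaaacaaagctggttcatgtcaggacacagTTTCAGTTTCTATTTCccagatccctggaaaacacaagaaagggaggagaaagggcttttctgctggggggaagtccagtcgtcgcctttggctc
Ifit1: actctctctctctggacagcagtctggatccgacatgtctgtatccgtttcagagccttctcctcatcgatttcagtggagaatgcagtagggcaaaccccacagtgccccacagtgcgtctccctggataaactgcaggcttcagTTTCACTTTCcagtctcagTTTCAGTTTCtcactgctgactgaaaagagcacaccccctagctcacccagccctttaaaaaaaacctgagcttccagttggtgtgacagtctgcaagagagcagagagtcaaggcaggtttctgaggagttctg

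A second group of interferon-inducible genes fell as neighbours. The HIN-200 genes encode nuclear DNA-binding proteins and lie side by side on chromosome 1 (173350879 to 174031810, GRCm38). They were singled out after their values were seen, because Ifi206 and Ifi213 were among the largest falls. Of 12 such genes tested, 10 were lower, 8 of them at both ages (3.91% and 1.22% of all genes), and Ifi205 was higher. Ifi206 ran from 15.4 through 17.9 to 22.3 CPM in WT and stood at 0.544, 0.627, 0.888 and 2.45 CPM in AireKO (log2 fold change -3.76 ± 0.29, adjusted p = 3.11e-10). Ifi204 ran from 55.8 through 66 to 77.5 CPM in WT and stood at 8.7, 6.9, 18.7 and 14.7 CPM in AireKO (-2.32 ± 0.26, adjusted p = 1.58e-07). Ifi203 ran from 108 through 138 to 156 CPM against 37, 29.5, 50 and 66.7 CPM (-1.52 ± 0.17, adjusted p = 1.74e-07). In each of these the AireKO and WT libraries did not overlap. The genes are near copies of each other and reads may be split between them, and Mndal overlaps Ifi203, so single values are less certain than the group.

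The fall was not limited to the HIN-200 genes. Their neighbours Cadm3, an adhesion molecule (-1.79 ± 0.26, adjusted p = 8.15e-06), and Ackr1, a chemokine-binding receptor that overlaps Cadm3 in the annotation (-2.39 ± 0.55, adjusted p = 0.00218), were lower at both ages too. Aim2, the member of the family that lies between them and Ifi206, stood at a log2 fold change of -0.65 and did not reach 2-fold. In the megabase from 173000001 to 174000000, 13 of 15 tested genes were lower, 10 at both ages (66.7%). Among 932 megabase bins with at least 8 tested genes, the next highest share of genes lower at both ages was 30%, on chromosome 16 from 97000001 to 98000000, with 3 of 10 genes. Farther along chromosome 1, Fmn2 stood at 0.18 (adjusted p = 0.389).

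**Figure D2:**
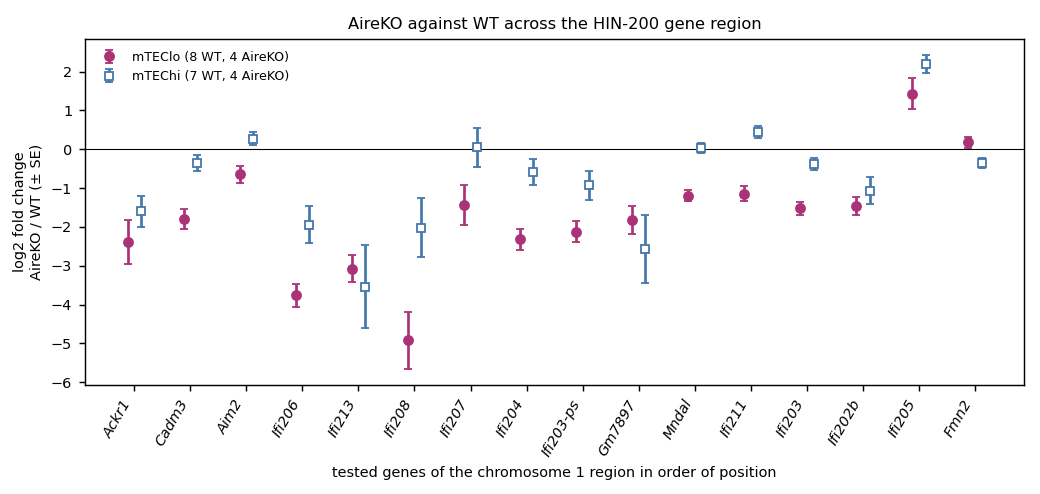
Log2 fold change of AireKO against WT (y axis, ± SE) for the genes of the chromosome 1 region with a mean of at least 1 CPM in a mTEClo group, in order of position, in mTEClo (filled circles, 8 WT and 4 AireKO) and mTEChi (open squares, 7 WT and 4 AireKO). From Ackr1 to Ifi202b every mTEClo value is below 0, with Ifi208 at -4.92, whereas Ifi205 (1.43) and Fmn2 (0.18) lie above 0. In mTEChi, Aim2 (0.27), Ifi207 (0.05), Mndal (0.03) and Ifi211 (0.44) lie above 0 too.

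Genes of motile cilia fell as well. Ciliated mimetic cells use FOXJ1 to build cilia with axonemal dyneins and radial spokes. Of 23 tested genes of the ciliated list, 11 were lower and 0 higher, 8 of them at both ages, where 3.91% of all genes were lower and 1.22% lower at both ages. The list had a median log2 fold change of -0.97. Without WT replicates 1 and 2 the count was 10. Summed over the list, WT ran from 727 to 938 CPM and AireKO from 426 to 607 CPM. Foxj1 ran from 27.9 through 34.1 to 38.6 CPM in WT and stood at 9.25, 8.16, 9.77 and 6.87 CPM in AireKO (-1.98 ± 0.33, adjusted p = 4.91e-05). Hydin, a central-pair protein, ran from 22 through 29.5 to 39 CPM against 1.63, 3.14, 7.7 and 5.89 CPM (-2.53 ± 0.25, adjusted p = 2.03e-08). No AireKO library reached a WT library in either gene. Spag6l (-2.45), Rsph4a (-2.17) and Tekt1 (-1.83) were also lower at both ages. Sntn, a protein of the cilium tip, had 90 reads over the WT libraries and 0 over the 4 AireKO libraries, so it was at least 13.4-fold lower (floor of 3 counts over the AireKO group).

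The axonemal dynein heavy chains, were taken by symbol after their values were seen. Of 15 Dnah genes tested, 9 were lower and 0 higher, 6 of them at both ages (3.91% and 1.22% of all genes). Dnah3 ran from 18.7 through 27.2 to 49 CPM in WT and stood at 0, 0, 0.592 and 0.491 CPM in AireKO, 4 reads in all (-6.29 ± 0.56, adjusted p = 4.16e-09). Dnah12 ran from 16.8 through 26.8 to 45.6 CPM against 0.544, 1.88, 1.18 and 0.245 CPM, 9 reads in all (-5.03 ± 0.47, adjusted p = 8.25e-09). Their AireKO reads were too few for the rule on named genes. Dnah3 overlaps Lyrm1 in the annotation. Dnah6 ran from 32.7 through 44.9 to 71.9 CPM in WT and stood at 3.26, 2.51, 2.07 and 2.45 CPM in AireKO (-4.25 ± 0.32, adjusted p = 1.59e-10). Dnah10 ran from 37 through 51.3 to 84.9 CPM against 3.26, 5.02, 3.26 and 2.21 CPM (-4.09 ± 0.32, adjusted p = 3.5e-10). Dnah6 and Dnah10 were at a few CPM in all 4 AireKO libraries. Some members moved less: Dnah11 was lower by -1.09 (50.6, 44.5, 57.7 and 66.5 CPM in AireKO, WT minimum 88.1 CPM), and Dnah9, at -0.97, did not reach 2-fold. Of 28 Cfap genes, which encode cilia- and flagella-associated proteins, 15 were lower and 0 higher, 10 at both ages (3.91% and 1.22% of all genes were lower). Cfap61 (-2.55) and the cilium gene Vwa3a (-2.61) were among the 12 largest falls. Cfap43 went another way in the 6-week pair, with 49.7 and 29.4 CPM there against 1.63 and 3.76 CPM in the 5-week pair, and a WT range of 5.2 to 21.9 CPM. Cfap43 overlaps Itprip in the annotation.

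**Figure D3:**
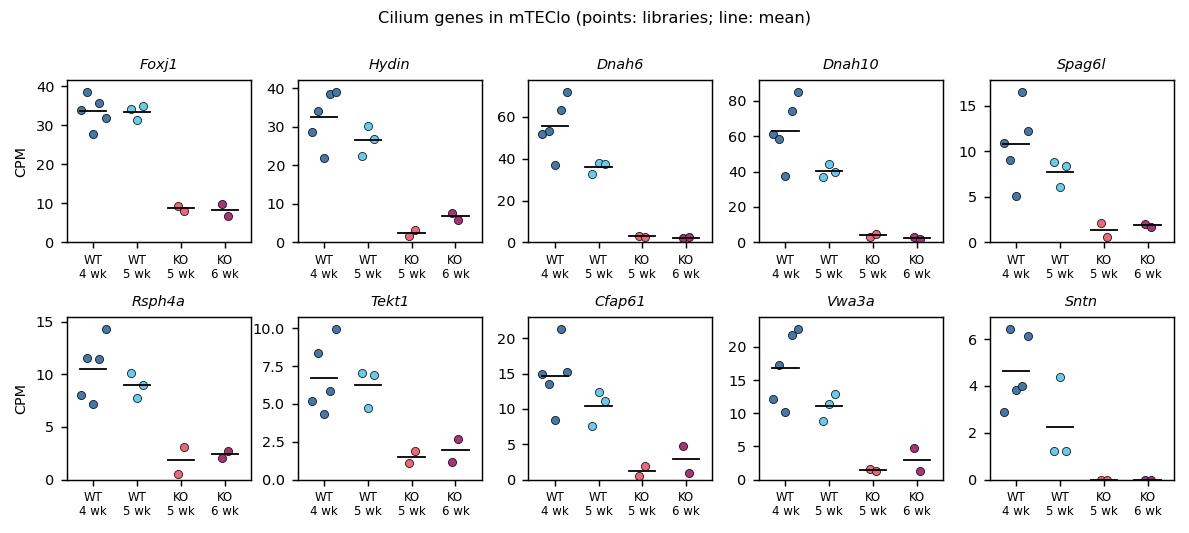
CPM of 10 cilium genes in each mTEClo library (y axis, from 0), grouped by genotype and age (x axis, KO meaning AireKO), with points for libraries and a line for the group mean. The AireKO points lie near the bottom of each panel at both ages, as for Dnah6 with 2.07 to 3.26 CPM against 32.7 to 71.9 CPM in WT, and Sntn is at 0 in all 4 AireKO libraries.

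Among 11 tested microfold genes, which mark cells that sample antigen across mucosal surfaces, 6 were lower and 0 higher, 3 at both ages, against 3.91% and 1.22% of all genes (median log2 fold change -1.03). Ccl20, a chemokine that draws CCR6-bearing lymphocytes, ran from 23.8 through 55.4 to 75.4 CPM in WT and stood at 10.9, 14.4, 14.2 and 5.89 CPM in AireKO (-2.31 ± 0.28, adjusted p = 6.34e-07). Ccl9 ran from 17.4 through 36.4 to 60.4 CPM against 5.98, 5.65, 2.07 and 4.17 CPM (-3.13 ± 0.36, adjusted p = 3.4e-07). Pglyrp1 (-1.62) also fell at both ages, whereas the defining microfold genes Gp2 (-1.06) and Sox8 (-1.03) passed at 5 weeks and stood at -0.79 and -0.83 at 6 weeks. Without WT replicates 1 and 2 the count was 4. Spib went another way in the 5-week pair, with 364 and 382 CPM there and 234 and 188 CPM in the 6-week pair, against 195 to 276 CPM in WT. Summed over the microfold list, WT ran from 1068 to 1517 CPM. The 5-week AireKO pair, at 1083 and 1070 CPM, lay within that range, and the 6-week pair, at 855 and 753 CPM, lay below it. Of 16 thymic chemokines 2 were lower and 2 higher (3.91% and 4.39% of all genes). Ccl20 and the interferon-inducible Cxcl11 (-1.27) were lower at both ages, and Ccl19 and Cxcl12 were higher, both called at 6 weeks and not at 5 weeks.

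Gut, mucus and skin lists also moved downward, but less evenly. Among all genes 3.91% were lower and 4.39% higher, with 5.16% lower in the 6-week pair and 3.08% in the 5-week pair. Of 25 enterocyte genes 11 were lower and 0 higher, 10 in the 6-week pair and 2 in the 5-week pair, and the count was 9 without WT replicates 1 and 2, 7 without AireKO replicate 3 and 6 without AireKO replicate 4. Saa1 (an acute-phase protein, 2.18, 0.627, 0.888 and 1.23 CPM against a WT minimum of 4.37 CPM, -3.60) and Muc13 (a membrane mucin, -2.34) were the 2 that fell at both ages. Of 18 goblet genes 6 were lower and 1 higher, yet the summed list stood at 4166 and 4546 CPM in the 5-week pair and at 2689 and 2212 CPM in the 6-week pair, against 2510 to 4991 CPM in WT. WT libraries themselves ranged widely for this list, as for the secreted mucin Muc5ac with 7.22 to 202 CPM in WT against 1.96 to 5.65 CPM in AireKO (-4.63 ± 0.86, adjusted p = 0.000216), and 4 of its genes were also called between the WT ages. Clca1, another secreted goblet protein, stood at 34.3 and 48.3 CPM in the 5-week AireKO pair and at 12.4 and 12.8 CPM in the 6-week pair, within the WT range of 11 to 270 CPM (-1.93, adjusted p = 0.0117). Of the list, Bpifb1 alone was lower at both ages. Clca4a, a relative of Clca1 outside the list and among the 12 largest falls, was lower at both ages too (-2.43). Of 29 keratinocyte genes 5 were lower and 1 higher (3.91% and 4.39% of all genes), 3 lower and 2 higher without WT replicate 1 or without WT replicates 1 and 2. Krt10, a keratin of the upper epidermis, was the keratinocyte gene that fell at both ages (10.9, 9.41, 28.1 and 35.3 CPM against 38.6 to 154 CPM in WT, -1.86), and it was also lower in 5-week than in 4-week WT.

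Lists of other specialised cells held calls that moved with single libraries. Ionocyte genes counted 3 lower of 11 (3.91% of all genes), 1 lower without WT replicate 6, without AireKO replicate 1 or without WT replicates 1 and 2, and 0 without AireKO replicate 2. Of 22 endocrine genes 2 were lower and 1 higher (3.91% and 4.39% of all genes), none at both ages. Over 28 alternatives these counts ran from 1 to 5 and from 0 to 2. Without WT replicate 7, WT replicate 8 or AireKO replicate 4 there were 4 lower, and 1 lower without WT replicate 6 or AireKO replicate 2 or 3. The higher count was 2 without WT replicate 1, 2, 4, 5 or 6, without AireKO replicate 1 or 2, and without WT replicates 1 and 2 together, and 0 without AireKO replicate 3. At 5 weeks 4 were lower, and the list summed to 343 and 264 CPM in that pair and to 479 and 555 CPM in the 6-week pair, against 380 to 551 CPM in WT. Of 18 liver plasma protein genes 2 were lower at both ages (1.22% of all genes). These were the acute-phase proteins Crp (19, 23.8, 34.6 and 44.9 CPM against 57 to 102 CPM in WT, -1.37 ± 0.17, adjusted p = 1.2e-06) and Hp (0, 0.627, 7.1 and 4.41 CPM against 11.1 to 24.2 CPM in WT, -2.21). A single liver gene, Ahsg, was higher (1.14), with 12.1 and 6.13 CPM in the 6-week pair and 1.63 and 0.627 CPM in the 5-week pair.

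Genes that rose with the loss of Aire at both ages included tissue-restricted and neuronal genes. Ucma, a cartilage matrix protein, ran from 1.93 through 4.49 to 5.63 CPM against 29.4, 28.2, 39.1 and 52.7 CPM (3.18 ± 0.20, adjusted p = 1.22e-11). Every AireKO library was several times above the highest WT library. The neuronal genes Pou3f3 (2.70), Stac (2.64) and Reln (2.40) also rose at both ages, Stac being an adaptor of calcium channels and Reln a secreted guide of neuronal migration. Pou3f3 missed the threshold within the 4 shallower libraries, with a log2 fold change of 1.04.

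Several immune signalling genes stood among the 12 largest rises. Ctla4, an inhibitory receptor best known from T cells, ran from 0 through 1.04 to 3.45 CPM in WT and stood at 10.3, 11.9, 14.2 and 24 CPM in AireKO (3.70 ± 0.36, adjusted p = 1.62e-08). Tlr9, a receptor for unmethylated DNA, ran from 1.27 through 6.12 to 10.4 CPM against 53.3, 57.7, 20.4 and 21.1 CPM (2.61 ± 0.31, adjusted p = 3.69e-07). The 5-week pair was higher than the 6-week pair for Tlr9, yet both lay above all WT libraries. The type 2 cytokine Il13 (2.55), the cytokine receptor Il21r (2.35) and the costimulatory ligand Tnfsf9 (2.37) rose at both ages. Among CC chemokine receptors, singled out after the values were seen, Ccr6 (2.51) and Ccr7 (2.21) were higher and Ccr1 (-3.43) and Ccr2 (-2.40) were lower, each at both ages.

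Chitinases and chitinase-like proteins, secreted by macrophages and epithelia in type 2 responses, were also taken by symbol after the values were seen. Of 5 tested, 4 were higher, all at both ages (4.39% and 1.46% of all genes). The fifth, Chil1, stood at 78.9, 60.2, 92.1 and 84.6 CPM against 91.5 to 180 CPM in WT, a log2 fold change of -0.70 (adjusted p = 0.0137) that is under 2-fold. Chil3 ran from 1.29 through 4.16 to 21.9 CPM in WT and stood at 59.8, 52.7, 47.7 and 75.3 CPM in AireKO (3.05 ± 0.39, adjusted p = 1.48e-06). Chil3 was also higher in 5-week than in 4-week WT (2.20, adjusted p = 0.00811), and against WT of the same age the 5-week AireKO pair was higher by 2.04. Chil4 ran from 6.91 through 9.13 to 24.2 CPM against 96.3, 116, 42 and 52.5 CPM (2.63 ± 0.34, adjusted p = 1.46e-06). Chia1 (1.96) and Chil5 (1.68) followed at lower levels. Chil3 and Chil4 are near copies, so reads may be split between them.

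Muscle genes went the other way from the ciliated and gut lists. Of 23 tested, 8 were higher and 0 lower, 4 at both ages (4.39% and 1.46% of all genes), and 7 without WT replicates 1 and 2. Acta1, skeletal actin, ran from 7.42 through 18.7 to 25.2 CPM in WT and stood at 106, 39.5, 27.8 and 67.7 CPM in AireKO (1.72 ± 0.28, adjusted p = 4.36e-05). The troponins Tnni1 (1.62) and Tnnt2 (1.13) and the myosin light chain Myl1 (1.19) rose at both ages too. Myog, the transcription factor of muscle differentiation, stood at 101 and 79.7 CPM in the 5-week pair but at 31.7 and 30.4 CPM in the 6-week pair, against 20.1 to 42.8 CPM in WT. The list summed to 1942 and 1889 CPM in the 5-week pair and to 851 and 1009 CPM in the 6-week pair, against 990.5 to 1331 CPM in WT, so the 5-week pair lay above WT and the 6-week pair did not. The count was 5 without AireKO replicate 1 and 5 without AireKO replicate 2.

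Of 10 genes typical of cortical epithelium (cTEC), which lies outside the sorted gate by its Ly51, 5 were higher and 0 lower, 3 at both ages (4.39% and 1.46% of all genes). Without WT replicates 1 and 2 the count was 4, and 3 without AireKO replicate 3. Prss16, a thymus-specific protease, ran from 36 through 39.1 to 48.4 CPM in WT and stood at 73.4, 109, 130 and 78.7 CPM in AireKO (1.29 ± 0.15, adjusted p = 2.96e-07). Tbata ran from 34.9 through 50.7 to 81.6 CPM against 133, 131, 124 and 118 CPM (1.27 ± 0.13, adjusted p = 6.3e-08). Psmb11, the thymoproteasome subunit that defines cTECs, ran from 2.02 through 3.2 to 14.4 CPM against 16.3, 15.1, 20.7 and 16.2 CPM (1.90 ± 0.31, adjusted p = 5.33e-05). All 3 were above every WT library at both ages. Cxcl12 was higher in the 6-week pair (149 and 163 CPM) and not in the 5-week pair (57.1 and 71.5 CPM, WT 45.3 to 65.9 CPM). Ccl19, a ligand of CCR7, had 0 reads in all 8 WT libraries and 48 reads in AireKO, all in the 6-week pair (7.7 and 5.4 CPM), so it was at least 35.9-fold higher (floor of 3 counts over the WT group).

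**Figure D4:**
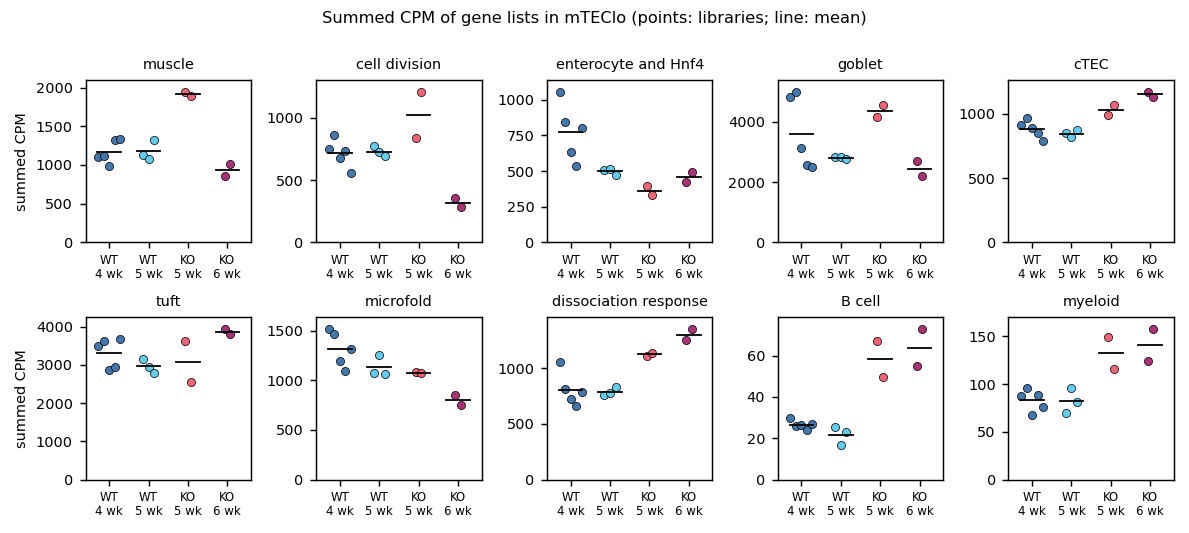
Summed CPM of 10 gene lists in each mTEClo library (y axis, from 0), grouped by genotype and age (x axis, KO meaning AireKO), with points for libraries and a line for the group mean. Muscle and cell division differ between the 2 AireKO ages (muscle 1942 and 1889 against 851 and 1009 CPM, cell division 839 and 1207 against 357 and 283 CPM), whereas the B cell and myeloid sums lie above WT at both.

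Few genes of the basal and maturation programs of mTEClo were called. The shares among all genes were 4.39% higher and 3.91% lower. Of 14 epithelial and mTEC identity genes 0 were called by edgeR or by DESeq2, although 6 had an unadjusted p under 0.05 and 5 passed the adjusted threshold at less than 2-fold. Ly6d was lower at 5 weeks. Of 15 basal mTEClo genes 1 was higher, Krt15 (80.5, 52.1, 33.5 and 45.1 CPM against 7.06 to 29.1 CPM in WT, 1.50 ± 0.29, adjusted p = 0.000278), a keratin of basal epithelial cells. Foxn1, the master factor of thymic epithelium, stood at 162, 147, 100 and 93.4 CPM against 53.3 to 110 CPM, a log2 fold change of 0.60 (adjusted p = 0.0169) that is under 2-fold. Fezf2, which drives an Aire-independent set of tissue antigens, stood at 0.19 (adjusted p = 0.222). Cd80 (0.37, adjusted p = 0.189) and H2-Aa (0.32, adjusted p = 0.152) were not called either. In both, the 5-week pair was above the 6-week pair, with 36.4 and 39.5 against 13.9 and 20.1 CPM for Cd80, and Cd80 was called higher at 5 weeks (1.06). Of 13 genes for MHC class II presentation 2 were higher, H2-Oa (1.11) and H2-Ob (1.19 ± 0.13, adjusted p = 1.59e-07), which form the inhibitor of peptide loading H2-O, H2-Ob at both ages. Of 17 costimulation genes 2 were higher, Cd83 (1.83) at both ages and Icosl at 5 weeks (232 and 271 CPM against 91.2 and 67.9 CPM at 6 weeks). The 5-week AireKO pair stood apart in the sums of both lists. MHC class II genes summed to 3285 and 3633 CPM there and to 2156 and 1944 CPM in the 6-week pair, against 1644 to 2855 CPM in WT mTEClo and 3590 to 4453 CPM in WT mTEChi. Costimulation genes summed to 2508 and 2671 CPM in the 5-week pair and to 1777 and 1585 CPM in the 6-week pair, against 1652 to 2129 CPM in WT mTEClo. Whether this difference at the gate has a part in other 5-week results was not tested. WT replicates 1 and 2, the other shallower libraries, were also high for some class II genes. H2-Aa stood at 442 and 488 CPM there against 275 to 360 CPM in the other WT libraries, and Cd74 at 682 and 701 against 347 to 485 CPM. H2-Ob (13.24 and 18.64 against 12.25 to 20.81 CPM) was not. The part of depth was not tested. Without WT replicate 5 the MHC class II and costimulation lists each counted 1, as did MHC class II without AireKO replicate 4 and costimulation without AireKO replicate 1 or 2.

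Tuft genes, which mark chemosensory cells, counted 2 higher and 0 lower of 21, Il25 (1.27) at both ages and the taste-signalling subunit Gng13 (1.14) at 6 weeks, and 6 were higher in the 6-week pair. The count was 4 without AireKO replicate 1 or 2 and 1 without AireKO replicate 4. Of the 21, 3 had every AireKO library above every WT library and 2 the reverse (5.8% and 5.84% of all genes). Dclk1 stood at 429, 313, 505 and 549 CPM in AireKO against 566.5 to 765.4 CPM in WT. Gnat3 stood at 93.5, 83.4, 107 and 105 CPM against 129 to 171 CPM. The list summed to 3628, 2552, 3938 and 3804 CPM in AireKO and to 2787 to 3674 CPM in WT. For this and the following lists, 4.39% of all genes were higher and 3.91% lower, with 5.76% higher in the 6-week pair. Of 12 tested germline genes 4 were higher, among them Zp2 of the egg coat (53.8, 38.9, 46.8 and 73.1 CPM against 10.8 to 35.2 CPM in WT, 1.38 ± 0.20, adjusted p = 9.32e-06). Of 16 tested classical tissue antigens 3 were higher and 0 lower, none at both ages. Of 10 subunits of Polycomb repressive complex 2, which deposits a repressive histone mark, 0 were called by edgeR or by DESeq2, and 3 had an unadjusted p under 0.05. Ezh2, its catalytic subunit, stood at a log2 fold change of -0.48 (adjusted p = 0.00163), under 2-fold.

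Cell division genes separated the 2 AireKO ages. In the whole comparison 1 of 32 was lower, whereas at 5 weeks 2 were higher and at 6 weeks 22 were lower. Between the ages of AireKO 28 of the 32 were lower at 6 weeks, against 3.09% of all genes. Mki67, a marker of cycling cells, stood at 97.9 and 164 CPM in the 5-week pair and at 25.2 and 11.3 CPM in the 6-week pair, with WT at 71.4 to 145 CPM. The 5-week pair overlapped WT and the 6-week pair lay below it, and the log2 fold change was 0.24 (adjusted p = 0.533) at 5 weeks and -2.59 (adjusted p = 8.11e-09) at 6 weeks.

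Markers of other cells moved along with these changes, and their part in the results was not tested. Among all genes 4.39% were higher and 3.91% lower, and 1.46% were higher at both ages. Among 6 tested B cell genes 2 were higher at both ages. Ighm ran from 3.36 through 8.88 to 11 CPM in WT and stood at 36.4, 25.7, 29.6 and 35.1 CPM in AireKO (1.96 ± 0.18, adjusted p = 4.84e-09). Pax5 rose by 1.21, and 5 of 9 tested immunoglobulin constant genes were higher. The B cell sum was 16.8 to 29.9 CPM in WT libraries, against 49.6 to 72.8 CPM in AireKO libraries. The defining marker Ms4a1 was near 0 (3 reads over the AireKO group). Without AireKO replicate 4 the count was 1. Among 11 myeloid genes 3 were higher and 2 lower, with a sum of 68.1 to 96.5 CPM in WT libraries against 116 to 158 CPM in AireKO libraries. Lyz2 (89.7, 77.8, 78.4 and 111 CPM against 18.7 to 44.3 CPM in WT, 1.41) and the lysosomal Cd68 (1.47) were higher at both ages, and Mpeg1 (-1.70) was lower. Adgre1 (6 reads) and Itgax (4 reads), which define macrophages and dendritic cells, were near 0 over the AireKO group, and Ptprc (CD45) stood at 16.9, 4.39, 8.59 and 13.2 CPM against 13.8 to 26.3 CPM in WT. Without WT replicates 1 and 2 the 3 higher and 1 of the lower myeloid genes were called, and 1 lower without WT replicate 5 or without AireKO replicate 1, 2 or 3.

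Thymocyte genes (1 higher and 1 lower of 11), mesenchyme genes (1 and 1 of 12) and endothelial genes (1 and 0 of 10) each held a called gene, where 4.39% of all genes were higher and 3.91% lower, and the 1 erythroid gene tested missed the threshold. Mesenchyme genes differed between the AireKO ages, with 0 higher at 5 weeks and 3 at 6 weeks, in the same pair that held Ccl19 and the high Cxcl12. Their part in those rises was not tested. The collagen gene Col3a1 stood at 16.9 and 15.7 CPM in the 5-week pair and at 57.4 and 37.8 CPM in the 6-week pair, against 5.63 to 16.8 CPM in WT. Dcn, a matrix proteoglycan, stood at 19.6 and 26.4 CPM and at 77.9 and 97.4 CPM, against 34.5 to 47.8 CPM in WT. The whole mesenchyme list summed to 707 to 767 CPM in AireKO and 789 to 967 CPM in WT. Without WT replicate 6 there were 2 higher mesenchyme genes, and without AireKO replicate 4 there were 0 lower. The thymocyte sum was 53.1 to 67.3 CPM in WT libraries, against 53.3 to 72.9 CPM in AireKO libraries. Of 11 genes known to respond to tissue dissociation, 2 were higher at both ages (1.46% of all genes). These were Atf3 (26.6, 32.6, 40 and 42.7 CPM against 10.5 to 18.4 CPM in WT, 1.30) and Dusp1 (1.12). The sum of that list was 660 to 1052 CPM in the WT libraries, and in the AireKO libraries it was 1112 to 1350 CPM, so every AireKO library lay above WT. The sex-linked Xist and Tsix were called lower, with all AireKO mice male and 3 WT libraries at high Xist.

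The effect of Aire on mTEClo was then set against that on mTEChi in separate libraries. All 4 AireKO mTEChi libraries had 0 mitochondrial counts, and the 7 WT mTEChi libraries had 8184 to 9521 each. In mTEChi that split is the same as the split by genotype. The 2 therefore cannot be told apart in the mTEChi values or in the difference between fractions. In mTEChi 1057 genes (5.48%) were higher and 3460 (17.9%) lower in AireKO. Of the 754 genes lower in mTEClo, 492 were also lower in mTEChi, which is 65.3% of the mTEClo and 14.2% of the mTEChi list, and 6 were higher there. Of the 848 genes higher in mTEClo, 283 were also higher in mTEChi (33.4% and 26.8% of the lists), and 138 were lower there. A test of the difference between the 2 effects called 2634 genes. The effect was more positive in mTEChi for 506 of them (2.62% of tested genes) and more negative for 2128 (11%).

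Some genes went in opposite directions in the 2 fractions. Chil3 rose by 3.05 in mTEClo and had a log2 fold change of -3.45 ± 0.67 in mTEChi (adjusted p of the difference 2.99e-07). Ucma (-1.08 in mTEChi, adjusted p of the difference 4.43e-11) and Chil4 (-2.04, 1.22e-07) did likewise. Krt15 (-2.36 in mTEChi), Acta1 (-2.55) and Tnni1 (-1.56) were also higher in mTEClo and lower in mTEChi, each with a called difference. Ctla4 (3.70 and 3.11) and Stac (2.64 and 2.33) rose in both with no difference called (adjusted p = 0.346 and 0.438).

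Falls also differed between fractions. Foxj1, at -1.98 in mTEClo, showed no call in mTEChi (adjusted p of the difference 0.000657), and Hydin (-0.73), Spag6l (-0.18) and Rsph4a (-0.44) were not called in mTEChi, each with a called difference. Dnah6 fell by 4.25 on the log2 scale in mTEClo and by 2.20 in mTEChi. Other cilium genes fell further in mTEChi, such as Dnah5 (-2.39 there and -0.90 in mTEClo, adjusted p of the difference 0.000177). Across the ciliated list the effect was lower in mTEChi for 7 genes and higher for 5. Of 15 Dnah genes 12 were lower in mTEChi, where 17.9% of all genes were lower. In the HIN-200 region, Ifi204 (-0.59) and Ifi203 (-0.38) were not called in mTEChi, again with a called difference, and 4 of the 12 HIN-200 genes were lower there. The interferon list counted 15 lower genes of 30 in mTEChi, where Oas2 (-4.20), Ifit2 (-4.10) and Rsad2 (-4.50) fell further than in mTEClo. For 7 listed interferon genes the effect was lower in mTEChi and for 2 it was higher. Mx1, at -0.66 in mTEChi, was not called there.

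**Figure D5:**
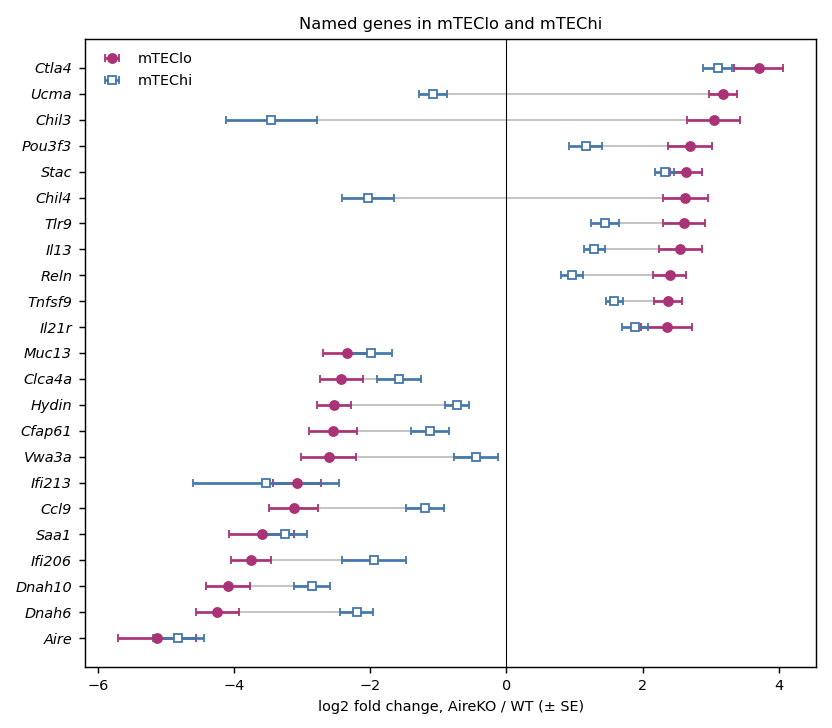
Log2 fold change of AireKO against WT (x axis, ± SE) for 11 of the 12 largest rises and the 12 largest falls in mTEClo, with mTEClo as filled circles (8 WT, 4 AireKO) and mTEChi as open squares (7 WT, 4 AireKO), joined by a line for each gene. Ucma, Chil3 and Chil4 lie on opposite sides of 0 in the 2 fractions, whereas Aire lies at -5.14 and -4.83.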

How the data were processed

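RNA was measured in 23 adult libraries, of which the 12 of mTEClo are described. The authors deposited raw counts, whole reads per Ensembl gene. Per their methods and the submitters' processing notes, reads were trimmed with fastp 0.20.0, mapped to mm10 with STAR 2.7.3a, filtered with SAMtools 1.9, freed of duplicates with Picard 2.21.1 and counted with HTSeq 0.11.2 without strand. The annotation release is not given in the sources used here. Duplicate removal without molecular identifiers can flatten abundant genes. The deposited normalized and neonatal tables were not used.

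Symbols and coordinates came from GENCODE M21 (GRCm38). Mitochondrial genes were left out. The count test used edgeR 4.0.16 under R 4.3.3 (filterByExpr, TMM, quasi-likelihood F-test, 2-sided, Benjamini-Hochberg over all tested genes) in 1 model over the 4 adult groups, and a second with groups split by age. Calls required at least a 2-fold change with an adjusted p below 0.05. CPM use TMM-scaled library sizes, and fold changes a prior count of 0.125. The SE of a log2 fold change was derived from the test, as its absolute value divided by the square root of the F statistic. The common dispersion was 0.0203 (biological coefficient of variation 14.2%). A count of 0 allows up to 3 counts, for counting error only. The code was tested on simulated data.

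Each library is a labelled replicate. Nothing in the labels says whether replicates came from separate animals, so p-values measure the spread between libraries. Members and gene lists were chosen with earlier results of these data known. Named genes are Aire, Foxn1, Fezf2, Cd80, H2-Aa, list members, and the 12 largest rises and 12 largest falls among called protein-coding genes with a name, outside chromosome Y, with no overlap in CPM, at least 10 CPM in the higher group, on average more than 3 reads in the lower group, and the same call at both ages. The rule left 123 higher and 107 lower genes to choose from. Some items are not reported here. Genes outside it were chosen after their values were seen, among them the HIN-200 region, the Dnah, Cfap and chitinase genes and the chemokine receptors. Alternatives covered scaling, filters, terms for sex, age and replicate number, library subsets and DESeq2 1.42.0.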

Additional observations from a re-analysis of the deposited data

Results flagged for a closer look

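The AireKO effect differed between mTEChi and mTEClo, by a test of the difference, for 52 of 121 genes named, against 13.6% of all genes. Most of these genes were named for their change in mTEClo, which favours a smaller effect in mTEChi. The log2 effect in mTEChi minus that in mTEClo was below 0 for the chitinase-like Chil3 (-6.50), Chil4 (-4.67), Chia1 (-3.28) and Chil5 (-1.11), for the muscle genes Acta1 (-4.26), Myl1 (-4.25), Tnni1 (-3.17), Myog (-1.90) and Tnnt2 (-1.09), and for Col3a1 (-5.76), Ucma (-4.26), Krt15 (-3.86), Cxcl12 (-3.03) and Psmb11 (-1.51). It was also below 0 for Ahsg (-2.14), Ccr6 (-1.40), Pou3f3 (-1.53), Reln (-1.44), Cd83 (-1.29), Il13 (-1.26), Tlr9 (-1.16), Ighm (-1.15) and Atf3 (-1.03). Each of these genes was higher in AireKO mTEClo, and the rise was smaller or a fall in mTEChi.

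Among genes lower in AireKO mTEClo, the difference was below 0, with a deeper value in mTEChi, for Tekt1 (-5.82), Rsad2 (-3.16), Hp (-2.59), Ifit2 (-2.13), Oas2 (-2.03), Ifi44 (-1.44) and Gp2 (-1.24). It was above 0, with a shallower or opposite value in mTEChi, for the cilium genes Spag6l (2.27), Vwa3a (2.17), Dnah12 (2.89), Dnah6 (2.05), Foxj1 (1.98), Hydin (1.80), Rsph4a (1.73) and Cfap61 (1.43), the microfold genes Ccl9 (1.94), Sox8 (1.65) and Ccl20 (1.57), the chromosome 1 genes Ifi204 (1.74), Ifi211 (1.58), Cadm3 (1.43), Mndal (1.23) and Ifi203 (1.14), and Crp (1.86) and Cxcl11 (1.13). Among genes that were not called in mTEClo, the difference was 1.14 for Ifit1, 1.13 for Dnah9, -1.04 for Pdpn and -4.72 for Adgre1.

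A single library stood far from the rest of its group in 14 of 240 pairs of gene and group checked, where chance alone gives about 1 in 20. The highest value of the group stood apart for Gng13 (9.43 CPM) in WT replicate 5, Prss16 (48.4 CPM) in WT replicate 3, Psmb11 (14.4 CPM) in WT replicate 1, Ifi208 (0.245 CPM) in AireKO replicate 4, and Il25 (11.5 CPM) and Vwa3a (4.74 CPM) in AireKO replicate 3. The same held for Ccr2 (13.8 CPM) and Chia1 (5.75 CPM) in WT replicate 1, Chil5 (11.4 CPM) and Ms4a1 (0.799 CPM) in WT replicate 4, Adgre1 (3.31 CPM) in WT replicate 8 and Itgax (2.18 CPM) in AireKO replicate 1. The lowest value stood apart for Dnah9 (45.4 CPM) in AireKO replicate 4 and Fmn2 (23.7 CPM) in AireKO replicate 3.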

How the results depend on the processing

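The 1602 genes called in AireKO against WT mTEClo became 4799 without a minimum change, 707 with at least 10 counts asked of every library of a group, 1047 with age as a term and 862 among the 4 shallower libraries, a subset chosen after seeing the data. The count between WT ages was 181 without a filter on low counts. The settings with fewer libraries also have fewer samples, and otherwise the cause was not tested. Leaving out 1 library at a time gave 1437 to 1717 genes in the whole comparison, 805 to 1278 at 5 weeks, 1464 to 2302 at 6 weeks, 32 to 82 between WT ages and 626 to 1893 between AireKO ages, where a lone sample was assumed to vary like the other groups. It gave 2419 to 2700 for the difference between fractions. Aire stayed between -6.58 and -4.55, with an adjusted p of at most 4.13e-06. Scaling by another method (1606 and 1600 genes), DESeq2 (1606), a term for sex (1463) and leaving out WT replicates 1 and 2 (1567, chosen after seeing the data) kept the count within 1.5 times. Same-numbered WT and AireKO libraries correlated at 0.0318, 0.0504, 0.0395 and 0.0969, so the numbers do not pair them, and not every library correlated best with its own number. A fit with the replicate block called 1583 genes, with Aire at -4.98. Genes at a few CPM rest on few reads in the 4 shallower libraries.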
